A study of Mus musculus with 4 samples.

Results

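The genes described here are the replication-dependent histone genes of mouse prostate tumours. They were taken as every gene whose symbol begins with Hist1h, Hist2h, Hist3h or Hist4h and that had at least 20 unique molecular identifiers (UMIs, each standing for 1 captured transcript) over the 4 libraries. Of 67 symbols with such a name, 61 were members, out of 32285 genes in the tables. They encode 5 linker histones H1, 15 H2A, 16 H2B, 12 H3 and 13 H4 proteins. The 6 others had 15 UMIs (Hist1h1t), 8 (Hist2h2aa2), 3 (Hist1h2ah), 1 (Hist1h2bq) and 0 (Hist1h2ba and Hist1h2aa), and the 3 members with the fewest had 23 (Hist1h2bk), 27 (Hist1h3h) and 35 (Hist1h2an).

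Single-cell RNA was counted with 3' tags in whole tumours of 4 mice, 1 library per mouse, in a study of CHD1 in tumours with mutant SPOP. The 2 PCSp mice carried PB-Cre, a Cre recombinase under the probasin promoter that acts in prostate epithelium, together with floxed Chd1 (Chd1L/L), the mutant allele SpopF133V and the mTmG reporter. The 2 PSp mice had the same alleles without floxed Chd1, so mutant Spop was common to both groups. Castration was done at 9 months in every mouse, and tissue was taken 1 month after it. Nothing in the labels says whether immune, stromal or endothelial cells of these tumours carry the deletion. The labels do not name litters, batches or dates.

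Every S phase doubles the DNA of a cell, and the replication-dependent histone genes supply the proteins that package the new copy. H2A, H2B, H3 and H4 form the core of the nucleosome, and the linker histone H1 binds the DNA between nucleosomes. Most of these genes have no intron and lie in clusters, and their transcripts usually end after a conserved stem-loop, to which the protein SLBP binds, in place of a poly(A) tail. Some of them also give rise to longer, polyadenylated transcripts, which have been described in differentiated cells. Replacement histones such as H2A.Z and H3.3 come from other genes, whose transcripts carry a poly(A) tail at all times of the cell cycle. The libraries were primed with oligo(dT), so the UMIs counted here are those histone transcripts that this primer caught, and the share of each gene's RNA that it caught was not measured. For the same reason, levels of different genes are compared below only as captured UMIs. A 3' tag is counted once per transcript, so no correction for length was made.

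In the GENCODE M21 annotation (GRCm38), all 61 members were found by gene ID, 49 of them on chromosome 13, 9 on chromosome 3, 2 on chromosome 11 and 1 on chromosome 6. A histone 3' stem-loop of 16 bases stood in an annotated transcript of 44 members. Its most common form, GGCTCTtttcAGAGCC, was found in 25 members, and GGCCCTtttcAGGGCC in 7. The 6 genes on which much of the result turns are shown from the sense strand 5′ to 3′, with the stem-loop in capitals. They are given because their annotated transcripts end at very different distances after it.
Hist1h2ap: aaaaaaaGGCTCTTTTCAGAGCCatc
Hist1h3c: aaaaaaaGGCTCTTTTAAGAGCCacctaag
Hist1h4d: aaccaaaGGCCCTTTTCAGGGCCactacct
Hist1h1c: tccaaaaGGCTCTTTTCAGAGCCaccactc
Hist3h2a: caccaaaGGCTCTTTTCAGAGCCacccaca
Hist2h2aa1: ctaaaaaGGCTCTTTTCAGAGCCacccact

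These stretches lie at chr13:21833026-21833051 on the minus strand (Hist1h2ap), chr13:23745040-23745069 on the minus strand (Hist1h3c), chr13:23581943-23581972 on the plus strand (Hist1h4d), chr13:23739505-23739534 on the plus strand (Hist1h1c), chr11:58955165-58955194 on the plus strand (Hist3h2a) and chr3:96246025-96246054 on the plus strand (Hist2h2aa1). The annotated transcript of Hist1h2ap ends 3 bases after the stem-loop, that of Hist2h2aa1 35 bases after it and that of Hist1h3c 74 bases after it. The longest transcripts of Hist1h4d, Hist1h1c and Hist3h2a run on for 770, 840 and 1643 bases. Hist1h2bc (chr13:23684199-23692908, plus strand) has an annotated transcript of 2 exons with a 3' UTR of 742 bases and no stem-loop in it. By this measure 26 members were long, meaning that an annotated coding transcript runs over 100 bases past the stem-loop, or has a 3' UTR over 100 bases with no stem-loop. The other 35 were short, and 21 of these have a stem-loop in an annotated transcript. Some others, such as Hist1h1b, are annotated with no 3' UTR. The short group thus mixes ends near the stem-loop with models that stop at the coding sequence. This split was made after the values were seen.

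Among the members, 9 pairs of an H2A and an H2B gene are transcribed away from each other from start sites 176 to 296 bases apart, so that both share the DNA between them. The windows of the pairs Hist1h2ae with Hist1h2bg and Hist1h2ac with Hist1h2bc are printed from the plus strand, as RefSeq sequence of GRCm38.p6, because both pairs hold genes with unequal fold changes. Capitals mark 3 motifs on either strand, the TATA box TATAAA, the CCAAT box and the octamer ATTTGCAT.
Hist1h2ae-Hist1h2bg: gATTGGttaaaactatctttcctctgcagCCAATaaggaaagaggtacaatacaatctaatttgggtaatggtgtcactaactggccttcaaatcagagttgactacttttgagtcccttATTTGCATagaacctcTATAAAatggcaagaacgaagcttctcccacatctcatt
Hist1h2ac-Hist1h2bc: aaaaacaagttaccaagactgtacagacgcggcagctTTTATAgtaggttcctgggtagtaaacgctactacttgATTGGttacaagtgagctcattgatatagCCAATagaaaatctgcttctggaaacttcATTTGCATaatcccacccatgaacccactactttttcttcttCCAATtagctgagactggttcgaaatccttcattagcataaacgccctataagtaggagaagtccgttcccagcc

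The first window lies at chr13:23571221-23571395 and the second at chr13:23683949-23684198. The first holds 1 TATAAA, 2 CCAAT and 1 ATTTGCAT, and the second 1, 3 and 1, and no match overlaps another motif. Promoters of 55 members were found in the RefSeq table by symbol or gene ID. In the 250 bases before the start, on both strands, TATAAA stood in 27 of these 55 (49.1%), against 12.4% of 32817 promoters of the same length. CCAAT stood in 44 of 55 (80.0%), against 33.8%. All 14 H2A and all 14 H2B promoters had it, against 3 of 12 H4 promoters. ATTTGCAT, the octamer known from H2B promoters, stood in 5 of 14 H2A and 5 of 14 H2B promoters and in 1.60% of all. These matches describe the letters of the windows only.

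The 4 libraries held 9656 and 9600 barcodes in the PCSp mice and 6539 and 7266 in the PSp mice, with 66874620 to 90839725 UMIs each. After the cell filters 26431 cells were left, 7615 and 7806 in the PCSp mice and 5163 and 5847 in the PSp mice, with medians of 2476.5 to 4234 UMIs. PCSp mouse 2 had the lowest median. Between 11 and 27 barcodes were shared by any 2 libraries. Cells were named by marker genes: 12501 were epithelial-like, 5912 neutrophil-like, 3245 fibroblast-like, 2142 macrophage-like (with monocytes), 1113 T and NK-like and 780 endothelial-like. The keratin gene Krt8 was at 2069 to 2826 CPM (UMIs per 1000000 of the summed counts) in epithelial-like cells and at 53.7 to 96.5 CPM in macrophage-like cells, where the complement gene C1qa was at 4891 to 5682 CPM. Chd1 was at 60.1 and 56.3 CPM in epithelial-like cells of the PCSp mice and at 91.4 and 78.2 CPM in those of the PSp mice. Where the tags fall relative to the floxed exons is not known, so this level does not check the deletion. A cell was called cycling when Top2a, Mki67, Birc5, Ube2c and Cenpf, genes that peak in G2 and M phase, together had at least 5 UMIs. This held for 316 epithelial-like, 88 macrophage-like, 28 T and NK-like, 4 neutrophil-like and 1 fibroblast-like cells. Cycling cells were much deeper: their median was 37492.5 UMIs in epithelial-like cells, against 9613 UMIs in non-cycling ones. Between 14.9% and 21% of cycling barcodes had been left out as doublets, against 5.23% to 7.73% of all barcodes.

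A few members made up most of the captured histone RNA. Over all kept cells the members had 209395 UMIs, 0.0753% of the total, of which Hist1h2bc alone had 43.5% and the 12 most abundant members 87.3%. The median member had 465 UMIs. By protein, H2B genes held 46.9% of the member UMIs, H1 genes 19.7%, H2A genes 19.0%, H4 genes 10.7% and H3 genes 3.65%. The 26 long members held 78.5% and the 35 short ones 21.5%.

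Cycling epithelial-like cells held far more histone RNA than non-cycling ones, and of another kind. The summed level of all members was 2283, 2312, 2396 and 1659 CPM in cycling cells of PCSp mice 1 and 2 and PSp mice 1 and 2, against 813, 701, 536 and 795 CPM in their non-cycling cells. Without Hist1h2bc the sums were 1976, 1990, 2206 and 1320 CPM in cycling cells, against 360, 332, 255 and 356 CPM in non-cycling cells. Every mouse was higher in its cycling cells, and the states did not overlap. H2A genes gave 40.5% of the member UMIs in cycling cells and 12.8% in non-cycling cells, as means of 4 mice. H1 genes gave 29.8% in cycling and 15.9% in non-cycling cells, and H2B genes 17.2% in cycling and 57.2% in non-cycling cells. H3 genes gave 4.59% in cycling and 3.47% in non-cycling cells, and H4 genes 7.91% in cycling and 10.6% in non-cycling cells.

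Of the 61 members, 58 passed the filter on low counts in the test of cycling against non-cycling cells, with the mouse as a block (edgeR quasi-likelihood test, Benjamini-Hochberg over 15140 genes, threshold 0.05). Of these 37 were higher in cycling cells, 5 were lower and 16 did not pass. Among all 15140 genes, 19.9% were higher and 20.9% lower. Hist1h2ao, Hist1h2an and Hist1h3h were not tested. Of the 58, 6 passed the filter only with the cycling cells, and 5 of these were higher and 1 did not pass. They entered the test through their cycling cells, so these 5 carry little weight. Of the other 52, 32 were higher, 5 were lower and 15 did not pass. The median log2 fold change of the 58 was 1.70, against -0.05 over all genes. A summed level cannot tell more cells with a transcript from more transcripts per cell.

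**Figure D1:**
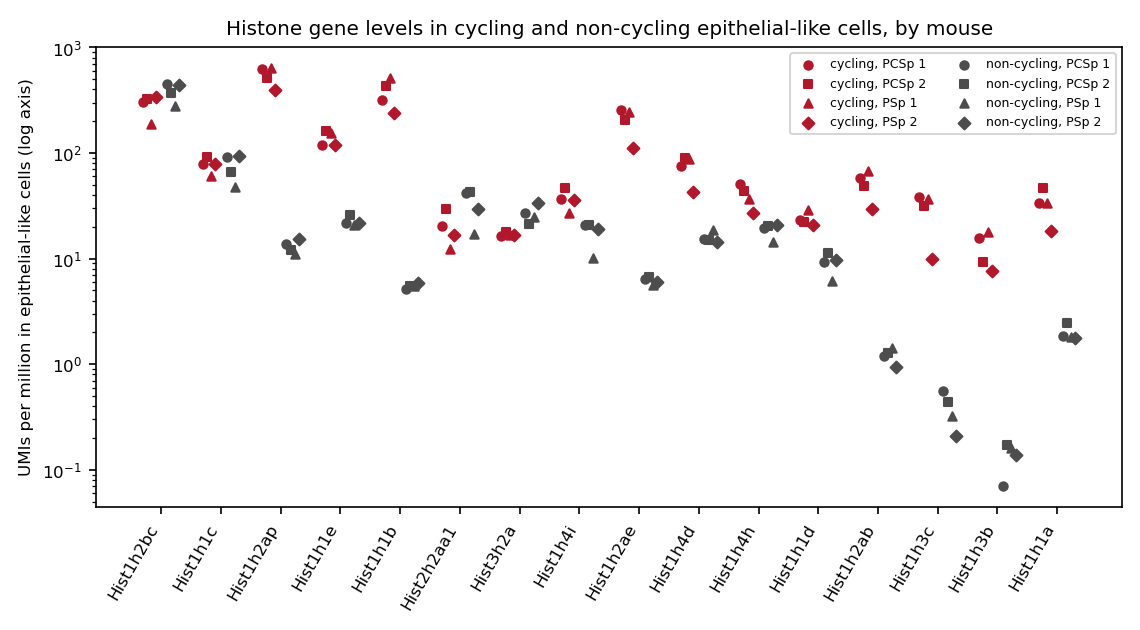
Levels of 16 histone genes in CPM (log axis) in cycling (red) and non-cycling (grey) epithelial-like cells, with 1 symbol shape per mouse and no error bars, since every mouse is shown. The cycling points of Hist1h2ap lie between 399 and 640 CPM and the non-cycling ones between 11.2 and 15.3 CPM, while the points of Hist1h2bc and Hist1h1c overlap.

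Linker histone genes differed widely among themselves. Hist1h1b, which encodes a linker histone made in dividing cells, was at 321, 427, 519 and 237 CPM in cycling cells of PCSp mice 1 and 2 and PSp mice 1 and 2, against 5.15, 5.45, 5.47 and 5.91 CPM in non-cycling cells (log2 fold change 6.13 ± 0.18 SE, adjusted p = 1.8e-09, edgeR). The lowest cycling value lay far above the highest non-cycling one. Hist1h1a, the least abundant of the 5, was at 33.7, 46.6, 33.8 and 18.4 CPM in cycling cells, against 1.86, 2.46, 1.80 and 1.75 CPM (4.12 ± 0.17). Hist1h1e was at 118, 160, 154 and 118 CPM in cycling cells, against 21.5, 25.8, 20.8 and 21.8 CPM in non-cycling cells (2.71 ± 0.09). Hist1h1e thus kept a level near 20 CPM or above outside the cycling cells as well. Hist1h1d was at 23.4, 22.0, 28.8 and 20.9 CPM in cycling cells, against 9.37, 11.3, 6.1 and 9.74 CPM (1.53 ± 0.19). Hist1h1c, the most abundant H1 gene, was at 78.9, 91.5, 60.6 and 78.7 CPM in cycling cells, against 92.0, 66.2, 47.8 and 93.2 CPM in non-cycling cells. Its states overlapped and it did not pass (0.18 ± 0.12, edgeR adjusted p = 0.271).

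Among the 13 H2A genes tested, 10 were higher and 2 lower. Hist1h2ap, the most abundant member of cycling cells, was at 620, 514, 640 and 399 CPM in cycling cells of PCSp mice 1 and 2 and PSp mice 1 and 2, against 13.6, 12, 11.2 and 15.3 CPM in non-cycling cells (5.47 ± 0.16). Hist1h2ae was at 256, 207, 247 and 111 CPM in cycling cells, against 6.41, 6.74, 5.67 and 5.96 CPM (5.09 ± 0.18). Hist1h2ab had the smallest p of the members, with 57.5, 48.3, 67.2 and 29.5 CPM in cycling cells, against 1.20, 1.27, 1.44 and 0.936 CPM in non-cycling cells (5.45 ± 0.13, edgeR adjusted p = 4.0e-10). In all 3 the states lay far apart, and PSp mouse 2 had the lowest cycling level. Hist2h2ac, from the cluster on chromosome 3, was at 21.4, 28.0, 36.8 and 10.7 CPM in cycling cells, against 2.18, 2.00, 2.07 and 1.66 CPM (3.62 ± 0.23). Hist1h2ac was at 8.35, 7.20, 9.19 and 12.2 CPM in cycling cells, against 7.35, 7.06, 5.61 and 7.23 CPM, a small difference that passed (0.58 ± 0.17, edgeR adjusted p = 0.0196).

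Of 11 H3 genes tested, 8 were higher and 1 lower. Hist1h3b had the largest fold change of all members: it was at 15.7, 9.32, 17.8 and 7.71 CPM in cycling cells of PCSp mice 1 and 2 and PSp mice 1 and 2, against 0.0696, 0.170, 0.162 and 0.139 CPM in non-cycling cells (6.59 ± 0.36). Hist1h3c was at 38.1, 31.8, 36.8 and 9.98 CPM in cycling cells, against 0.557, 0.438, 0.324 and 0.208 CPM (6.30 ± 0.21). Both were nearly absent outside cycling cells, with 12 to 32 UMIs of Hist1h3c per mouse there. Of the 219 epithelial UMIs of Hist1h3b, 192 came from cycling cells, so its fold rests on very few non-cycling UMIs.

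The H4 genes had the lowest median. Of 13 tested, 5 were higher, 1 was lower and 7 did not pass, with a median of 0.67. Hist1h4d was at 74.8, 89.0, 87.3 and 42.6 CPM in cycling cells of PCSp mice 1 and 2 and PSp mice 1 and 2, against 15.5, 15, 18.7 and 14.2 CPM in non-cycling cells (2.26 ± 0.14). Hist1h4i was at 36.8, 46.6, 27.0 and 36.3 CPM in cycling cells, against 20.6, 20.7, 10.2 and 19.0 CPM (1.18 ± 0.11). Hist1h4h was at 51.5, 43.6, 36.8 and 27.0 CPM in cycling cells, against 19.6, 20.4, 14.4 and 20.9 CPM (1.16 ± 0.15). None of the 3 overlapped between states. Of the 16 H2B genes, 10 were higher, 1 was lower and 5 did not pass, with a median of 2.02 and a highest value of 3.60 for Hist1h2bb.

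**Figure D2:**
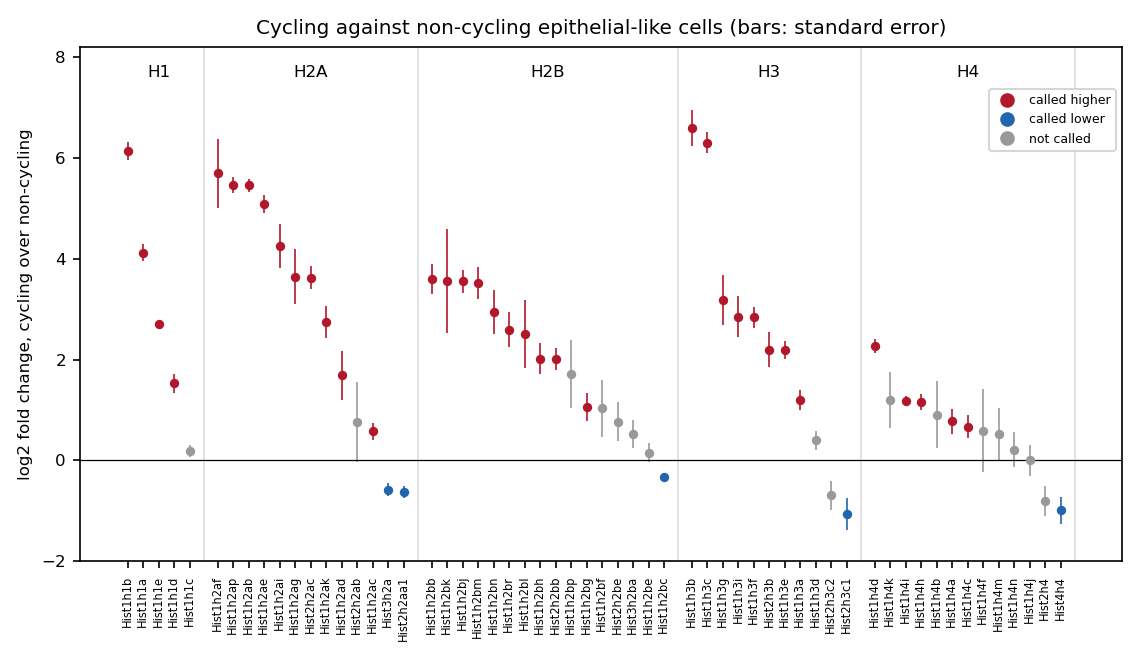
Log2 fold change of cycling over non-cycling epithelial-like cells for the 58 histone genes tested, grouped by protein, with bars of 1 standard error. Red points passed as higher (37), blue points as lower (5) and grey points did not pass (16). The H4 genes reach 2.26 at most, while the H3 genes reach 6.59 for Hist1h3b, which had few non-cycling UMIs.

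The 5 members that were lower in cycling cells include the most abundant one. Hist1h2bc was at 307, 322, 190 and 339 CPM in cycling cells of PCSp mice 1 and 2 and PSp mice 1 and 2, against 453, 369, 280 and 440 CPM in non-cycling cells (-0.32 ± 0.08, edgeR adjusted p = 0.00599). Each mouse was lower in its cycling cells, though the states overlapped across mice. Hist2h2aa1 was at 20.4, 29.2, 12.4 and 16.6 CPM in cycling cells, against 42.0, 43.1, 17.2 and 29.2 CPM (-0.63 ± 0.11). Hist3h2a was at 16.4, 17.8, 16.6 and 16.6 CPM in cycling cells, against 27.1, 21.3, 25.1 and 33.3 CPM in non-cycling cells, with no overlap (-0.58 ± 0.13). Hist4h4 was at 2.34, 2.54, 2.00 and 4.54 CPM in cycling cells, against 6.01, 6.57, 6.62 and 5.46 CPM (-0.99 ± 0.27). Hist2h3c1 was at 3.01, 1.27, 0.999 and 1.13 CPM in cycling cells, against 4.18, 2.68, 2.53 and 4.14 CPM (-1.06 ± 0.31). These low counts overlapped between the states for Hist2h3c1 and not for Hist4h4. Without the mouse as a block, Hist1h2bc (-0.30, adjusted p = 0.271) and Hist2h2aa1 (-0.69, adjusted p = 0.123) no longer passed, and 35 members were higher and 4 lower (edgeR).

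Depth moved with the state, so every cell with at least 3000 UMIs was also thinned to 3000 UMIs and cycling was called again on the thinned counts. This left 33 and 28 cycling cells in the PCSp mice and 27 and 29 in the PSp mice, and cells called cycling at full depth could then count among the others. In the thinned cells 23 of 43 members tested were higher and 0 lower (edgeR), against 3.81% higher and 7.15% lower among 11543 genes. Hist1h2ap was then at 970, 952, 1296 and 793 CPM in cycling cells of PCSp mice 1 and 2 and PSp mice 1 and 2, against 26.5, 20.7, 31.0 and 32.6 CPM in the others. The folds of Hist1h2bc (-0.34), Hist2h2aa1 (-1.24) and Hist3h2a (-0.91) were below 0 without passing, Hist1h4i (0.37) no longer passed, and Hist1h1c passed as higher (0.84, edgeR adjusted p = 0.00843). The fold of Hist2h2aa1 rests on 0, 2, 2 and 2 UMIs in the thinned cycling cells of PCSp mice 1 and 2 and PSp mice 1 and 2, and that of Hist3h2a on 2, 0, 1 and 3 UMIs. In thinned cells Hist1h2bc was higher in the cycling cells of PCSp mouse 1 (434 CPM, against 414 CPM) and nearly level in PCSp mouse 2 (333 CPM, against 335 CPM). It was lower in PSp mouse 1 (235 CPM, against 271 CPM) and PSp mouse 2 (322 CPM, against 417 CPM). Hist3h2a was higher in the thinned cycling cells of PSp mouse 2 (34.5 CPM, against 32.6 CPM). Hist1h1c also passed with doublets kept (0.30).

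The share of a gene's epithelial UMIs that came from the 316 cycling cells, among 12501, restates the same counts and is no further support. Over all genes the cycling cells held 6.70% of the epithelial UMIs. For single members the share was 87.7% for Hist1h3b, 84.2% for Hist1h3c, 83.2% for Hist1h1b and 74.8% for Hist1h2ap. Below the share over all genes were Hist1h2bc with 4.88%, Hist3h2a with 4.23% and Hist2h3c1 with 2.99%. Over all members it was 17.6%, and 28.9% without Hist1h2bc.

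Members with short and long annotated ends had different medians. Of the 32 short members tested, 24 were higher, 1 was lower and 7 did not pass, with a median log2 fold change of 2.90. Of the 26 long members tested, 13 were higher, 4 were lower and 9 did not pass, with a median of 0.72. These counts include the members that entered the test through their cycling cells alone. A fold change of 3 or more on the log2 scale was reached by 15 short members and by 1 long one, Hist1h2ae. The 5 lower members comprise 4 long ones and Hist2h2aa1, whose annotated end lies 35 bases after the stem-loop printed above. The cycling cells held 48.7% of the epithelial UMIs of the short members and 9.69% of those of the long members, or 16.6% without Hist1h2bc, against 6.70% over all genes. Long members were also the more abundant, with a median of 1342 UMIs against 202 for short ones, and no test was made of the difference, since the split was chosen with the values known. Of the 26 long members, 14 had a poly(A) signal (AATAAA or ATTAAA) in the last 40 bases of a transcript, and so had 1 of the 35 short ones, Hist1h4h. Annotated ends are not the ends used in these cells, which 3' counts per gene cannot show.

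**Figure D3:**
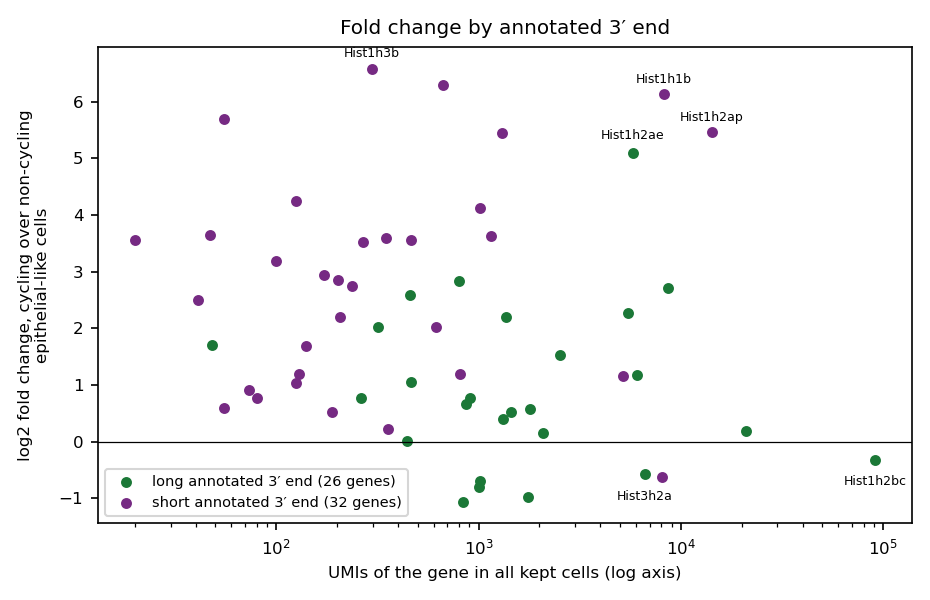
Log2 fold change of cycling over non-cycling epithelial-like cells against the UMIs of the gene in all kept cells (log axis), for 32 members with a short (purple) and 26 with a long (green) annotated 3' end. Purple points reach 6.59 (Hist1h3b, with few non-cycling UMIs) and 1 green point, Hist1h2ae, exceeds 3, while Hist1h2bc stands alone at 91112 UMIs.

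Fold changes on the 2 sides of 1 window were near each other in some divergent pairs and far apart in others. Hist1h2ae was at 5.09 and its partner Hist1h2bg at 1.06 ± 0.28, both higher in cycling cells. Hist1h2ac was higher (0.58) and Hist1h2bc lower (-0.32). Both genes were higher in 5 of the 9 pairs, among them Hist1h2ag with Hist1h2bj (3.65 and 3.55), Hist1h2ak with Hist1h2bn (2.75 and 2.94) and Hist1h2ai with Hist1h2bl (4.25 and 2.50). Hist1h2ap was at 5.47 and Hist1h2br at 2.59, and Hist2h2ac passed at 3.62 while its partner Hist2h2be (0.77) did not pass. Hist1h2ad passed at 1.69 and Hist1h2bf (1.03) did not, and in the last pair Hist1h2an was not tested and Hist1h2bp (1.71) did not pass. No difference within a pair was tested.

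Counts of single members are uncertain where copies are alike. Of the 61 members, 39 share at least 91 bases in a row with another of these genes in the last 400 bases of their transcripts, coding sequence included, among them Hist1h2ap, Hist1h2ae, Hist1h2ab, Hist2h2aa1, Hist1h3b, Hist1h3c and Hist1h4h. Hist1h2bc, the H1 genes, Hist1h4d, Hist1h4i, Hist3h2a and Hist4h4 share none. On the same strand 7 members overlap another gene, among them Hist1h1e, which overlaps Hist1h2be, and Hist3h2a, which overlaps Trim17. On the other strand 18 overlap a gene, and the strand setting of the counting is not given in the sources used here.

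Genes of the other lists moved in the same contrast. Of 17 histone chaperones, proteins that handle histones, 13 were higher and 0 lower, led by Anp32e (1.46 ± 0.06), Nap1l1 (1.53 ± 0.07) and Asf1b (4.68 ± 0.21). Of 15 genes of histone mRNA transcription, processing and decay found in the tables, 7 were higher, with Eri1, a nuclease that trims the stem-loop end, at 0.91 ± 0.08, the cleavage factor subunit gene Cpsf2 at 0.61 ± 0.07 and Slbp at 0.72 ± 0.10. Slbp was at 61.5, 90.3, 96.1 and 79.8 CPM in cycling cells of PCSp mice 1 and 2 and PSp mice 1 and 2, against 55.0, 55.3, 53.6 and 48.5 CPM in non-cycling cells. Of 11 replacement histone genes 8 were higher, led by Cenpa, the histone of centromeres (6.34 ± 0.12), H2afx (2.94 ± 0.08) and H2afz (2.02 ± 0.05). The H3.3 genes H3f3a (0.01) and H3f3b (0.03) and the H2A variant gene H2afj (-0.18) did not pass. All 34 S-phase genes tested were higher, with Rrm1 at 3.04, Rrm2 at 4.42 and Tyms at 3.02, and so were all 16 mitosis genes, with Nusap1 at 8.02, Tpx2 at 7.43 and Ccna2 at 8.0. The cells had been called cycling by genes that peak in G2 and M phase. A rise of mitosis genes was thus largely set by the call and is no support for it. Which genes of these lists entered the test only through their cycling cells was not counted.

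Because the 5 genes of the cycling call mark mostly G2 and M phase, non-cycling epithelial-like cells with at least 3000 UMIs were also divided by their share of UMIs from 34 S-phase genes. The 5% with the largest share, 421 of 8401 cells, were set against the others, with 228 cells lying within 10% of the limit. The S-phase-gene-high cells were shallower, with a median of 13763 UMIs against 18699.5 UMIs in the others. Of 44 members tested, 6 were higher in the S-phase-gene-high cells and 9 lower (edgeR with the mouse as a block), against 15.3% higher and 17.2% lower among all 14700 genes. The median was -0.11, against -0.02 over all genes. An unadjusted p below 0.05 (edgeR) was found for 18 of the 44 (40.9%) and for 41.6% of genes. As a set the members thus differed about as often as other genes, and the genes below are described singly. The 6 that were higher were Hist1h3c (2.49 ± 0.76), Hist1h1a (1.18 ± 0.35), Hist1h2ae (1.12 ± 0.21), Hist1h1b (1.09 ± 0.23), Hist1h2ap (0.52 ± 0.16) and Hist1h1e (0.37 ± 0.12), all of which were also higher in cycling cells.

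The members that were lower in these cells include the 2 most abundant ones. Hist1h2bc was at -1.18 ± 0.07 (edgeR adjusted p = 1.5e-07), Hist1h1c at -0.98 ± 0.09, Hist3h2a at -1.03 ± 0.16 and Hist2h2aa1 at -0.87 ± 0.15. Hist1h4i (-1.24), Hist3h2ba (-1.06), Hist1h4h (-0.60), Hist1h4j (-1.81) and Hist1h2be (-0.77) were lower as well. Hist1h4i and Hist1h4h, higher in cycling cells, were thus lower here. The counts fell whichever mouse was left out. Without PCSp mouse 1, 2 members were higher and 5 lower, and without PCSp mouse 2, 5 and 7. Without PSp mouse 1, 3 were higher and 7 lower, and without PSp mouse 2, 5 and 8. With 10% of cells in the group 10 were higher, and Hist1h4h (-0.27) and Hist1h1a (0.74) no longer passed. Hist1h4h and Hist1h1a also missed the threshold without PCSp mouse 1 (-0.57 and 1.20), without PCSp mouse 2 (-0.47 and 1.16) and without PSp mouse 1 (-0.58 and 1.03). Of the chaperones 12 of 17 were higher in these cells, and 7 of 15 genes of histone mRNA processing, with Slbp at 0.84 ± 0.09. Of the replacement histone genes 5 were higher, with H2afz at 0.79, and H3f3b (-0.36) and H2afj (-0.37) were lower.

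The comparison of genotypes asks whether loss of Chd1, a chromatin remodeller, went with other histone RNA levels. No member passed. In non-cycling epithelial-like cells 0 of 52 members tested were called (edgeR; 0 of 16256 genes called, 0%), 2 of them (3.85%) with an unadjusted p under 0.05, as 1204 of all genes had (7.41%). DESeq2 called 0 members there too. In cycling epithelial-like cells 0 of 41 members were called, against 21 of 11084 genes (0.189%). An unadjusted p below 0.05 was found for 4 members (9.76%) and for 7.55% of all genes, and DESeq2 again called 0 members. In all epithelial-like cells together 0 of 57 were called (0 of 16413 genes, 0%), 3 of these members (5.26%) and 7.43% of genes having an unadjusted p below 0.05, and DESeq2 called 0 of the members. With 2 mice per genotype, a p that misses the threshold does not show equal levels.

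In non-cycling epithelial-like cells the members of smallest p had low counts, apart from Hist2h2aa1. Hist2h2aa1, an H2A gene on chromosome 3 with a near copy in Hist2h2aa2, was at 42.0 and 43.1 CPM in the PCSp mice, against 17.2 and 29.2 CPM in the PSp mice (0.84 ± 0.26, edgeR adjusted p = 0.587). Both PCSp mice lay above both PSp mice. Hist1h3c was at 0.557 and 0.438 CPM in the PCSp mice, against 0.324 and 0.208 CPM (0.89 ± 0.39), and Hist1h4n at 1.44 and 2.09 CPM, against 0.992 and 1.37 CPM (0.55 ± 0.31). On the lower side, Hist1h4m was at 0.453 and 0.511 CPM in the PCSp mice, against 0.932 and 1.11 CPM in the PSp mice (-1.11 ± 0.28, edgeR adjusted p = 0.516). Hist1h4b was at 0.174 and 0.219 CPM, against 0.344 and 0.364 CPM (-0.88 ± 0.39), and Hist1h4f at 0.139 and 0.195 CPM, against 0.223 and 0.364 CPM (-0.87 ± 0.49). These 3 H4 genes rest on 8 to 64 UMIs per mouse. In all epithelial-like cells the same genes led, with Hist1h4m at -0.96 ± 0.29, Hist2h2aa1 at 0.86 ± 0.26 and Hist1h4b at -1.01 ± 0.37, none past the threshold.

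In cycling epithelial-like cells Hist3h2ba, an H2B gene on chromosome 11, stood out without passing. It was at 12.7 and 13.6 CPM in the PCSp mice, against 3.40 and 4.99 CPM in the PSp mice (1.65 ± 0.32, edgeR adjusted p = 0.171). In non-cycling cells it was at 7.38 and 5.4 CPM in the PCSp mice, against 4.11 and 6.24 CPM, where the genotypes overlapped. The difference between the 2 genotype effects was 1.37 ± 0.35 and did not pass (edgeR interaction, adjusted p = 0.350). It was the member of smallest p among 58, of which 0 were called, against 0.139% of genes called, and DESeq2 called 0 members. An unadjusted p below 0.05 was found for 3 of the 58 (5.17%) and for 5.97% of genes. Without PSp mouse 2 the genotype fold of Hist3h2ba in cycling cells was 1.98. With 1 PSp mouse left, that mouse is assumed to vary as the PCSp mice do, so only the size of the fold is given. With no filter on low counts the fold was 1.63 and passed (edgeR adjusted p = 2.6e-04). That fit also called more genes over all than the fit with the filter. With doublets kept the fold was 0.84 and did not pass. Hist1h4h was at 51.5 and 43.6 CPM in cycling cells of the PCSp mice, against 36.8 and 27.0 CPM (0.59 ± 0.18), and Hist1h2bn at 5.01 and 5.51 CPM, against 2.40 and 1.59 CPM (1.38 ± 0.44). Hist1h2ac was lower without passing, at 8.35 and 7.20 CPM in the PCSp mice, against 9.19 and 12.2 CPM in the PSp mice (-0.44 ± 0.30). Hist1h2bj (-0.22) and Hist1h1d (-0.12), at 9.69 and 10.6 CPM and at 23.4 and 22.0 CPM in the PCSp mice, against 14.4 and 9.30 CPM and 28.8 and 20.9 CPM in the PSp mice, overlapped between genotypes. Both turned to 0.09 without PSp mouse 1, in a fit with 1 PSp mouse left.

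**Figure D4:**
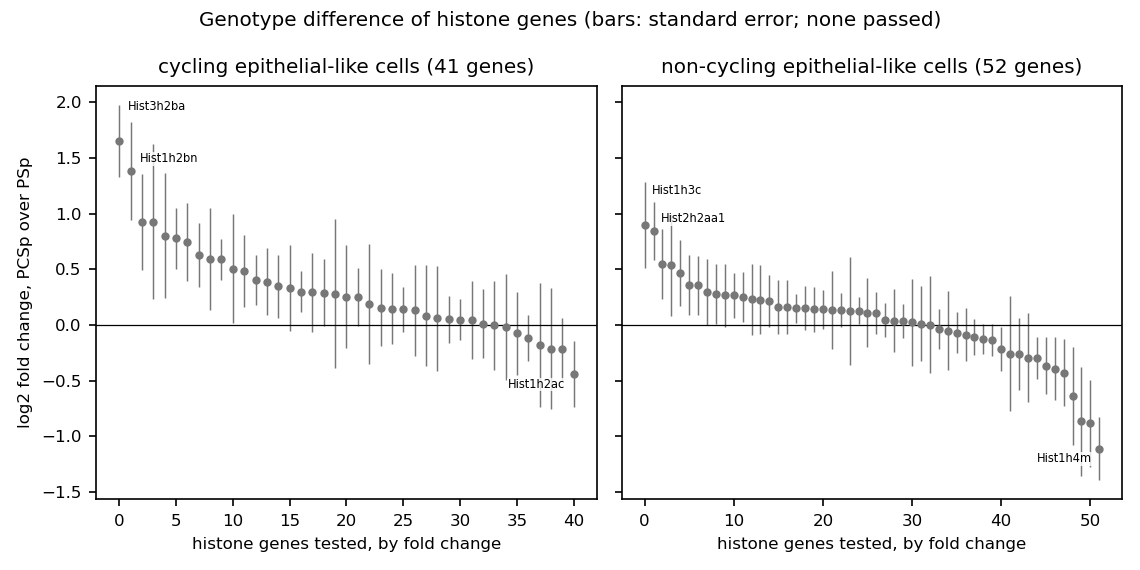
Log2 fold change of PCSp over PSp for the histone genes tested in cycling (left, 41 genes) and non-cycling (right, 52 genes) epithelial-like cells, in order of size, with bars of 1 standard error. No gene passed in either panel, and values run between -0.44 and 1.65 on the left and between -1.11 and 0.89 on the right.

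Sums over all members overlapped between genotypes. Over all of them, non-cycling epithelial-like cells had 813 and 701 CPM in the PCSp mice and 536 and 795 CPM in the PSp mice, which overlap, and PSp mouse 1 was the lowest. Cycling cells had 2283 and 2312 CPM in the PCSp mice and 2396 and 1659 CPM in the PSp mice, also overlapping. In the other lists no gene passed between genotypes in non-cycling cells. Among chaperones Daxx was at -0.58 ± 0.08, Anp32e at 0.42 ± 0.09 and Cabin1 at 0.19 ± 0.09. Among genes of histone mRNA processing Lsm10, Sympk and Cpsf3 were at -0.20, -0.18 and -0.18, and among replacement histones H1fx, H2afv and H2afz at 0.63, 0.26 and 0.20. Prim1, Mcm4 and Pola1 of the S-phase genes were at 0.35, 0.20 and 0.26, and Cks2, Aurkb and Ccnb1 of the mitosis genes at -0.45, -0.75 and -0.93.

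The share of cycling cells was lower in both PCSp mice, and it moved with depth. It was 1.96% and 2.14% of epithelial-like cells in the PCSp mice, against 3.13% and 3.08% in the PSp mice, a difference of -1.05 percentage points. The exact permutation test (two-sided) gave p = 0.33, the smallest that 4 mice allow. In cells thinned to 3000 UMIs the shares were 1.33% and 1.31% in the PCSp mice, against 1.41% and 1.34% in the PSp mice, a difference of -0.05 points. Both PCSp mice were also lower with cycling called from 3 UMIs (-1.22 points) or 10 UMIs (-0.78), in cells with at least 1000 genes and at most 10% mitochondrial UMIs (-1.48) and with doublets kept (-1.43).

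In the other large classes 0 members passed between genotypes either (edgeR, non-cycling cells). None of 15 members tested was called in fibroblast-like cells (0% of genes called), 16 in neutrophil-like cells (0.0878%), 15 in macrophage-like cells (0.0723%), 13 in T and NK-like cells (0.591%) and 8 in endothelial-like cells (0%). An unadjusted p under 0.05 was found for 3 members (20%) in fibroblast-like cells, against 3.84% of all genes. It was found for 2 (12.5%) in neutrophil-like cells, against 8.76%, and 2 (13.3%) in macrophage-like cells, against 6.90%. In T and NK-like cells 2 members had it (15.4%, against 8.53%), and in endothelial-like cells 1 (12.5%, against 6.52%). These shares rest on 8 to 16 members tested. DESeq2 called 0 members in each. Hist2h2aa1 was among the members of smallest p in macrophage-like cells too, at 13.0 and 13.7 CPM in the PCSp mice, against 6.11 and 6.61 CPM in the PSp mice (1.02, edgeR adjusted p = 0.532). In neutrophil-like cells it was at 50.2 and 60.6 CPM in the PCSp mice, against 40.1 and 37.2 CPM (0.49, edgeR adjusted p = 0.473). All PCSp values lay above the PSp values in both classes, without passing. The member of smallest p in neutrophil-like cells was Hist4h4 (-1.27, edgeR adjusted p = 0.415). In T and NK-like cells it was Hist1h1d (-1.23, edgeR adjusted p = 0.373). Hist1h2bc was at 0.73 in fibroblast-like, 0.59 in T and NK-like, 0.57 in endothelial-like and 0.51 in macrophage-like cells. In neutrophil-like cells Hist1h2bc was at -0.07, and none of these values passed. The level of Hist2h2aa1 in macrophage-like cells is 22.6% to 35.6% of that in the epithelium, and the part of free epithelial RNA in it was not tested.

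Histone genes were higher in cycling macrophage-like cells too. There were 21 and 31 such cells in the PCSp mice and 11 and 25 in the PSp mice, and this comparison was added after the cell counts were known. Of 36 members tested, 31 were higher and 0 lower in cycling macrophage-like cells (edgeR with the mouse as a block), against 9.41% higher and 8.81% lower among 9079 genes. Of the 36, 22 did not pass the filter on low counts in the non-cycling cells alone. They entered the test through cycling cells, where they are high, so the 21 of them called higher carry little weight. Of the 14 that passed it there as well, 10 were higher and 4 did not pass the test. Hist1h2ap was at 2307, 1509, 668 and 1262 CPM in cycling cells of PCSp mice 1 and 2 and PSp mice 1 and 2, against 20.9, 15.9, 10.2 and 30.0 CPM in non-cycling ones (6.09 ± 0.20). Hist1h2ae was at 1185, 884, 413 and 608 CPM in cycling cells, against 13.0, 11.2, 9.37 and 11.9 CPM (5.93 ± 0.20), and Hist1h1b at 1047, 1044, 545 and 337 CPM, against 11.6, 11.5, 7.74 and 11.0 CPM (5.96 ± 0.22). Cycling and non-cycling levels lay far apart for all 3, and both PCSp mice lay above both PSp mice among cycling cells, a difference that was not tested. Hist1h2bc, at 147, 98.2, 246 and 123 CPM in cycling cells, against 88.9, 158, 86.4 and 81.1 CPM, overlapped and did not pass (0.36 ± 0.24). It passed at 0.79 without PCSp mouse 2. Without the block 21 members were higher.

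The cycling difference itself was larger in macrophage-like than in epithelial-like cells for 13 of 46 members, and smaller for 0 (edgeR test of the difference of the 2 effects, Benjamini-Hochberg over 12461 genes, against 2.21% larger and 2.63% smaller among all genes). Of 36 members tested in both classes, 28 were higher in cycling cells of both, and 33 had the larger fold in macrophage-like cells. As 22 of the 36 entered through cycling macrophage-like cells, where they are high, these 2 counts carry little weight. The 13 comprise 11 long and 2 short members. The 46 tested were not counted by annotated end, so this split is no result about long members. Among the 13, Hist1h2ac, Hist1h2be, Hist1h2bh, Hist1h3d, Hist1h3e, Hist1h3f and Hist1h4c did not pass the filter in non-cycling macrophage-like cells alone. All of these are long, and their calls carry little weight as well. Hist1h1d was at 3.84 in macrophage-like cells and 1.53 in epithelial-like cells, Hist1h2be at 2.93 and 0.15, Hist1h3d at 3.06 and 0.40, and Hist1h4d at 3.87 and 2.26. For Hist1h2be this meant 28.1, 28.1, 26.4 and 8.21 CPM in cycling macrophage-like cells, against 2.82, 2.49, 2.44 and 2.64 CPM in non-cycling ones, while its epithelial level was 5.37 to 8.41 CPM in non-cycling cells. The count was 4 without PCSp mouse 1, 8 without PCSp mouse 2, 12 without PSp mouse 1 and 9 without PSp mouse 2. Of 16 mitosis genes, 9 had a smaller cycling difference in macrophage-like cells and 0 a larger one. Depth moved with the state in macrophage-like cells too, with a median of 12488 UMIs in cycling cells, against 2734 UMIs in the others. The part of depth in the difference was not tested.

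Cycling T and NK-like cells, 10 and 7 in the PCSp mice and 5 and 6 in the PSp mice, were not tested, since 3 of the 4 mice had fewer than the minimum of 10 cells used for macrophage-like cells. Their Hist1h2ap level was 3173, 3954, 1071 and 3093 CPM in PCSp mice 1 and 2 and PSp mice 1 and 2, against 59.0, 43.1, 34.2 and 53.5 CPM in non-cycling T and NK-like cells. Summed over all members the cycling cells had 7708 ± 3111 CPM (SD, n = 4) and the non-cycling cells 460 ± 36.2 CPM (SD, n = 4).

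Outside cycling cells, the 6 largest classes differed in which members they held. Hist1h2bc had its highest level in epithelial-like cells, 385 ± 79.3 CPM (SD, n = 4), followed by neutrophil-like (198 ± 9.03), macrophage-like (104 ± 36.3), fibroblast-like (87.5 ± 39.4), endothelial-like (57.6 ± 14.0) and T and NK-like cells (32.9 ± 10.9). Every mouse had more in epithelial-like than in neutrophil-like cells, while macrophage-like and fibroblast-like levels overlapped across mice, as did fibroblast-like with endothelial-like and endothelial-like with T and NK-like ones. Hist1h1c had another order, with 150 ± 18.5 CPM in neutrophil-like cells, 97.2 ± 21.4 in T and NK-like, 74.8 ± 21.9 in epithelial-like, 55.5 ± 18.4 in macrophage-like, 29.4 ± 8.36 in endothelial-like and 22.3 ± 5.65 in fibroblast-like cells, where neighbours overlapped save for the highest. Hist1h4i was at 132, 95.5, 126 and 112 CPM in neutrophil-like cells of PCSp mice 1 and 2 and PSp mice 1 and 2, against 20.6, 20.7, 10.2 and 19.0 CPM in epithelial-like cells. Hist1h2be was at 27.9 ± 3.04 CPM in neutrophil-like cells and at 2.60 ± 0.171 CPM in macrophage-like cells. Neutrophils do not divide once mature, and 4 of the 5912 neutrophil-like cells were called cycling.

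**Figure D5:**
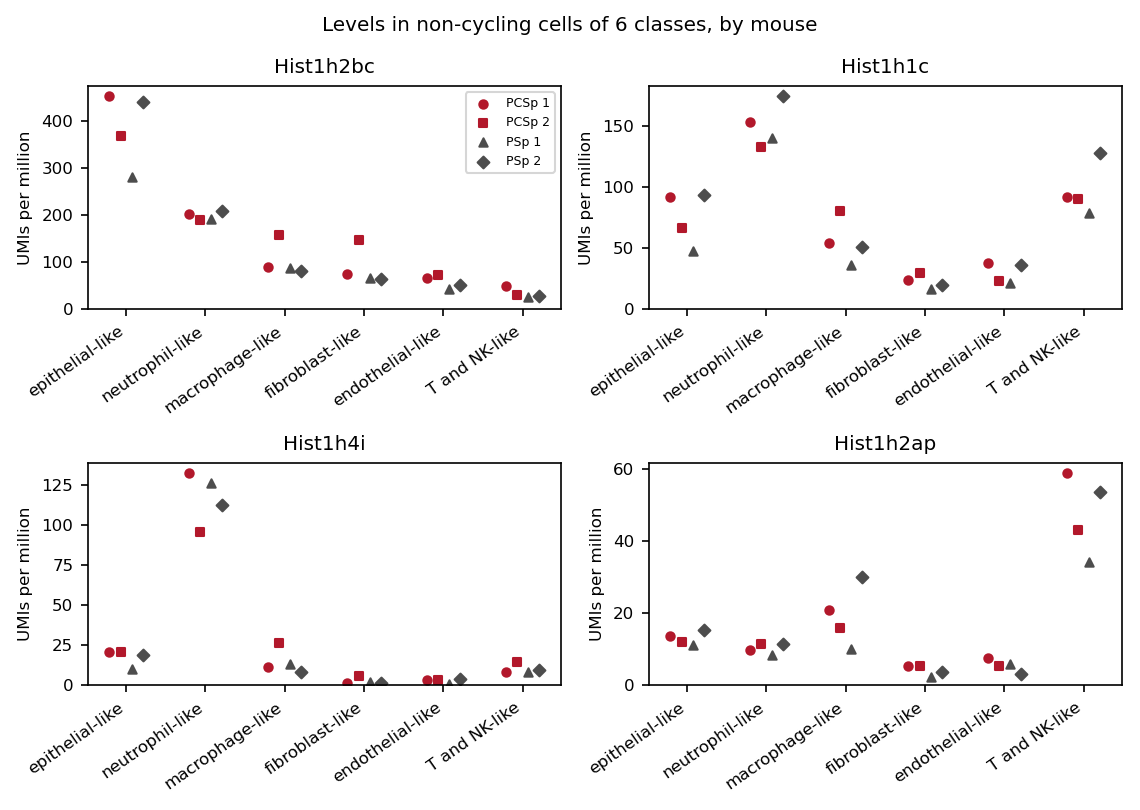
Levels of Hist1h2bc, Hist1h1c, Hist1h4i and Hist1h2ap in CPM in non-cycling cells of 6 classes, with 1 point per mouse (PCSp red, PSp grey). Hist1h2bc was highest in epithelial-like cells, Hist1h1c and Hist1h4i in neutrophil-like cells and Hist1h2ap in T and NK-like cells.

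Free epithelial RNA can reach every droplet, and Krt8 gives a measure of it. In neutrophil-like cells Krt8 stood at 5.10% to 7.13% of its epithelial level over the 4 mice, and Hist1h2bc at 44.7% to 68.3%. In T and NK-like cells Krt8 was at 1.97% to 3.64% and Hist1h2bc at 6.39% to 10.8%. In macrophage-like cells they were at 2.54% to 4.16% and 18.4% to 42.7%. In each of these 3 classes the ratio of Hist1h2bc lay above that of Krt8. These class levels are descriptions, since the classes come from clustering, which was run without the histone genes among the variable genes.

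Hist1h2bc also varied within the epithelium. In the 3 largest clusters of epithelial-like cells, it was over the 4 mice at 93.8 to 161 CPM in the 1986 cells of cluster 4, at 392 to 563 CPM in the 3112 cells of cluster 8 and at 571 to 751 CPM in the 2593 cells of cluster 11, with no overlap between these clusters. The median depth was 12920.5 UMIs in cluster 4, 25503.5 in cluster 8 and 1402 in cluster 11, so the shallowest of the 3 had the highest level. How cycling cells were spread over the clusters, and the part of this in their lower Hist1h2bc level, was not tested.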

How the data were processed

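Tumours of 4 mice were profiled with 10x 3' single-cell RNA-seq, 1 library per mouse. The authors deposited raw UMI counts per gene and barcode; per the submitters' processing notes, these came from Cell Ranger 6.1.2 and mm10. Barcodes with at least 300 genes and 500 UMIs and at most 20% mitochondrial UMIs were kept. Scrublet's automatic threshold marked 0 to 0.775% of barcodes, so the highest-scoring 0.8% per 1000 barcodes were left out as doublets (285 to 649 per library). Counts were scaled to 10000 per cell and logged, and clustered in scanpy 1.11.5 (2000 variable genes without histone genes, 30 components, 15 neighbours, Leiden resolution 1). A cluster was named from at least 3 markers raised by 1 or more on the log2 scale and found in at least 10% of its cells. The 256 cells of 1 cluster, led by epithelial RNA at low depth, stayed unnamed.

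UMIs were summed per mouse, class and state and tested with edgeR 4.0.16 (R 4.3.3; TMM factors, filterByExpr, quasi-likelihood F-test, Benjamini-Hochberg over all genes tested, threshold 0.05). Contrasts within mice had the mouse as a block, since both sums came from the same animal. DESeq2 1.42.0 was an alternative. Levels are CPM of the summed counts. P-values of the genotype contrasts measure the spread between mice of a genotype. Those of contrasts with the mouse as a block measure the spread of differences within mice. Both also borrow an estimate of spread from the other genes. Each of the 4 mice is 1 library. The scripts were tested on simulated data.

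The members and gene lists were chosen with earlier results of these data known. Values in every mouse were given for the 12 members with most UMIs, for the members of smallest p in the cycling contrast and for the 3 of smallest p in each direction in the genotype contrasts. Sequences came from GENCODE M21 transcripts and the RefSeq promoter table. Left out were barcodes failing the filters, 6 symbols under 20 UMIs, and classes with fewer than 50 non-cycling cells in a mouse. The genotypes are given without a further allele that all 4 mice share, which is not reported here.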

Additional observations from a re-analysis of the deposited data

Results flagged for a closer look

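The rise of histone RNA in cycling cells differed between macrophage-like and epithelial-like cells for 13 genes, by a test of the difference of the effects itself (edgeR, Benjamini-Hochberg over all genes tested). Among linker histones the difference, macrophage-like minus epithelial-like on the log2 scale, was 2.42 for Hist1h1d (adjusted p = 0.00116), 1.02 for Hist1h1e and 0.88 for Hist1h1c (adjusted p = 0.0455). Among H2A and H2B genes it was 3.13 for Hist1h2ac, 1.53 for Hist2h2aa1, 2.92 for Hist1h2be and 2.86 for Hist1h2bh. Among H3 genes it was 2.81 for Hist1h3d, 1.84 for Hist1h3e and 1.75 for Hist1h3f. Among H4 genes it was 1.72 for Hist1h4d, 1.99 for Hist1h4h and 2.45 for Hist1h4c. Hist2h2aa1 was at 0.80 in macrophage-like cells, without passing, and was lower (-0.63) in cycling epithelial-like cells. The other 12 were higher in cycling macrophage-like cells, and the part of depth in the difference was not tested. Hist1h2ac, Hist1h2be, Hist1h2bh, Hist1h3d, Hist1h3e, Hist1h3f and Hist1h4c did not pass the filter on low counts in non-cycling macrophage-like cells alone, so their calls carry little weight.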

How the results depend on the processing

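Of 646 alternative values of single genes, 607 kept their direction and side of the threshold, 30 lost and 6 gained the call, and 3 changed sign. Between genotypes in cycling epithelial-like cells with 1 mouse left out, Hist1h2bj ran between -0.47 and 0.088 and Hist1h1d between -0.30 and 0.093, both above 0 without PSp mouse 1. The other sign change was Hist1h2bc (-0.10) in cycling macrophage-like cells with doublets kept. The cause was not tested. In cycling against non-cycling epithelial-like cells, cells thinned to 3000 UMIs gave 23 higher and 0 lower members with far fewer cycling cells. Between genotypes in cycling epithelial-like cells, the number of members called changed when 1 mouse was left out, in fits with 1 mouse in a group. With no filter on low counts 1 member was higher. The calls for the difference between the genotype effects also changed with 1 mouse left out, and 1 member was higher with no filter. In the S-phase-gene-high cells 2 to 5 members were higher and 5 to 8 lower with 1 mouse left out, and 10 were higher with 10% of cells in the group. In fibroblast-like and neutrophil-like cells the number called between genotypes also changed with 1 mouse left out. With no filter 1 member was higher in fibroblast-like cells and 1 lower in neutrophil-like cells. The share over all genes is not given for the fits with 1 mouse left out. The difference between macrophage-like and epithelial-like cells gave 4 to 12 members. Over all genes DESeq2 called 180 between genotypes in non-cycling, 49 in cycling and 177 in all epithelial-like cells, against 0, 21 and 0 by edgeR, and no filter gave 62, 331 and 12. With thinned cells 1265 genes were called between states, against 3015 higher and 3167 lower ones at full depth.

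Without the replicate block, 35 members were higher and 4 lower in cycling epithelial-like cells, 5 higher and 7 lower in S-phase-gene-high cells and 21 higher and 0 lower in cycling macrophage-like cells. No paired analysis was possible because the labels give no numbers that pair PCSp with PSp mice. No other class had the planned minimum of 20 cycling cells in every mouse, so macrophage-like cells were compared with a minimum of 10, chosen after seeing the data. Genotype fits with 1 mouse left out assume that the lone mouse varies like the other pair. With 2 mice per genotype, small differences were not detectable, and low-count members rest on few UMIs.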
